A study of Mus musculus with 8 samples.

Results

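Myosin heavy chains were measured in the oviducts of adult mice after neonatal treatment with genistein (Gen), a soy phytoestrogen. The family comprised 10 genes, Myh1, Myh2, Myh3, Myh4, Myh6, Myh7, Myh8, Myh9, Myh10 and Myh11, and every array probe whose gene name was one of these was taken, which gave 24 probes among 41174 noncontrol probes. The family was chosen by readout, with the Gen against control change of Myh6 and Myh7 on these same arrays already known. For this reason, the differences of its members between the groups are a description, with no p-value for a member, and the count of members past the threshold of the array-wide fit is given beside the share of all probes and supports nothing.

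The arrays held oviduct RNA from female CD-1 mice, 4 given Gen at 50 mg/kg/day on PND1–PND5 and 4 controls given corn oil on the same days, with 1 array per sample. Females of both groups were superovulated and mated at 6–8 weeks, and whole oviducts were taken on GD2 (48 hr after hCG) without their embryos. Epithelium, stroma, smooth muscle and vessels were therefore measured together, so fewer cells of a type and less RNA per cell cannot be told apart. Signals are scaled intensities in arbitrary units, comparable between arrays for 1 probe but not between probes. Feature Extraction, the scanner software, detected 25359–28934 probes on each control array and 29527–31480 on each Gen array, detection meaning a signal well above background, and arrays of a group correlated at 0.978–0.988. All 4 control arrays were on a single slide and all 4 Gen arrays on a different one, and the effect of the slide cannot be told apart from that of Gen. Ovgp1, the oviduct-specific glycoprotein, was among the bright genes of both groups (mean signal 517773 in control and 538265 in Gen).

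Class II myosins are motors built from a pair of heavy chains, each with light chains bound at its neck, and the heavy chain largely sets how fast the motor pulls on actin. Myh6 and Myh7 encode the α and β heavy chains of the heart, and Myh7 is also the heavy chain of slow skeletal fibres. Myh1, Myh2 and Myh4 encode those of fast adult skeletal fibres, and Myh3 and Myh8 the embryonic and perinatal skeletal forms. Myh11 is the heavy chain of smooth muscle, the tissue of the oviduct wall, and Myh9 and Myh10 are non-muscle forms used in cell shape, adhesion and division.

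Not all members of the family were measurable. Of the 24 probes, 12 were detected on all 8 arrays, 4 on some of them and 8 on none. A probe entered the comparison of Gen with control when it was well above background on at least 4 of the 8 arrays, whichever group these were in. By this rule 14 probes of 8 genes were compared, and Myh3 and Myh4 had none. The 8 probes never above background had signals of 2.90–21.5.

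**Figure D1:**
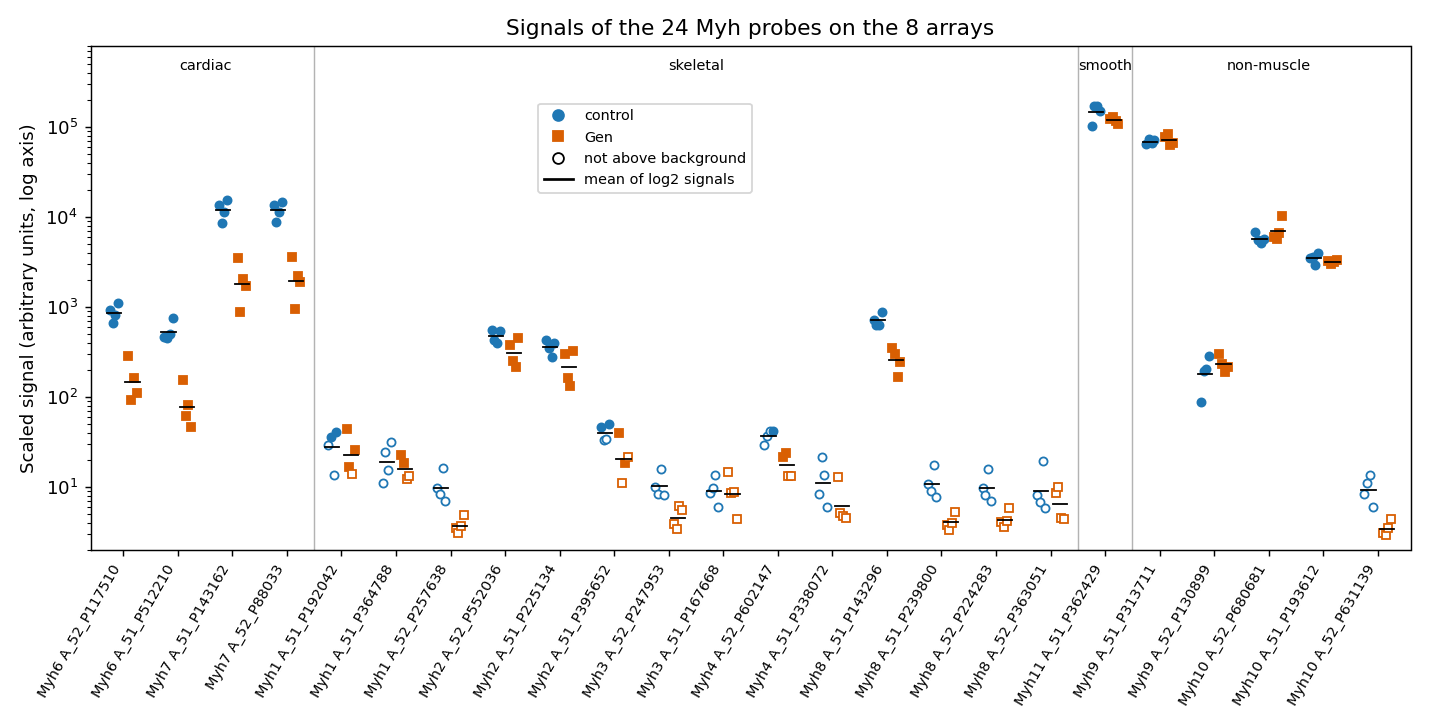
Signal of each of the 24 Myh probes (x axis, by gene class) on each array (y axis, scaled intensity on a log axis). Circles are control and squares Gen, filled where the probe was well above background, and bars are means of log2 signals. Among probes compared between the groups, Gen squares lie below all control circles for the Myh6 and Myh7 probes and A_51_P143296 of Myh8, while the Myh9, Myh10 and Myh11 squares lie at similar heights to the circles. Heights are not comparable between probes.

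The probes named for Myh7 and Myh6 had the largest differences of the family. On Myh7 probe A_52_P88033, the control signals were 13476, 8735, 11374 and 14831, and the Gen signals were 3637, 949, 2218 and 1911. Every Gen mouse was below every control mouse, and Gen replicate 2 was the lowest. The log2 change was -2.60 (SE 0.38, n = 4 per group), a signal 6.07-fold lower with Gen. Myh7 probe A_51_P143162 gave 13725, 8598, 11467 and 15297 in controls and 3481, 872, 2074 and 1725 with Gen. Its log2 change was -2.72 (SE 0.39), with the same order of mice. These probes are not independent measurements of Myh7. They lie at chr14:49837275-49837334 and chr14:49837280-49837339 on the minus strand (build mm7), 5 bases apart, and share 55 of their 60 bases. Both contain the polyadenylation signal AATAAA.

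On Myh6 probe A_52_P117510, the control signals were 934, 658, 819 and 1103, and the Gen signals were 288, 92, 161 and 111. The groups did not overlap, and the log2 change was -2.55 (SE 0.34), 5.84-fold lower with Gen. Myh6 probe A_51_P512210 gave 468, 457, 497 and 761 in controls and 153, 61, 81 and 47 with Gen. Its log2 change was -2.79 (SE 0.35), again with no overlap. Gen replicates 2 and 4 were well above background there but under the floor setting of 65.9, the highest among the arrays' lowest detected signals. With signals raised to that floor the change was -2.64. With normexp background correction it was -2.14. Control replicate 4 was the highest control and Gen replicate 1 the highest Gen array on both probes. The spread within Gen was wider than within control for both cardiac genes, with log2 SDs of 0.72 against 0.31 for A_52_P117510 and 0.80 against 0.33 for A_52_P88033.

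The sequences of both Myh6 probes are shown because the array design assigns each to the Myh6 transcript and to the Myh7 transcript, so that their signals cannot be divided between the genes. No other member probe carried RefSeq transcripts of more than 1 gene. The first is at chr14:49813005-49813064, and the second spans chr14:49811341-49812926, far more than its 60 bases, so it crosses a splice junction; both are on the minus strand of mm7.
A_52_P117510: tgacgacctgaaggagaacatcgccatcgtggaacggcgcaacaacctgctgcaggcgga
A_51_P512210: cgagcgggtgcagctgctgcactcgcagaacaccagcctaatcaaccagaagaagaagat

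The cardiac probes were compared by their profiles over the arrays. Likeness was measured as the root mean square (RMS) difference between log2 signals, each centred on its mean over the 8 arrays. The 2 Myh7 probes differed by 0.07, and the Myh6 probe A_52_P117510 differed from the Myh7 probe A_52_P88033 by 0.19, less than from the other Myh6 probe (0.25). That other probe, A_51_P512210, differed from the Myh7 probes by 0.40 (A_52_P88033) and 0.39 (A_51_P143162). Among genes with a probe above background on all arrays, the 5 closest to Myh6 were Myh7 (0.19), Coch (0.48), Lgi1 (0.48), Rln1 (0.49) and Cyp26a1 (0.50). The 5 closest to Myh7 were Myh6 (0.19), Coch (0.35), Cyp26a1 (0.47), Rln1 (0.49) and Fam189a1 (0.52). Centring over both groups left the Gen against control difference in each profile, the difference by which Myh6 and Myh7 were chosen. The other genes named had log2 changes of -2.70 to -1.90, so closeness to a large extent restates a similar fall. Shared regulation was not tested. Coch encodes cochlin, an extracellular matrix protein, and its mean signal was 686 in control and 106 with Gen. Cyp26a1, which clears retinoic acid, had mean signals of 13461 and 3380.

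**Figure D2:**
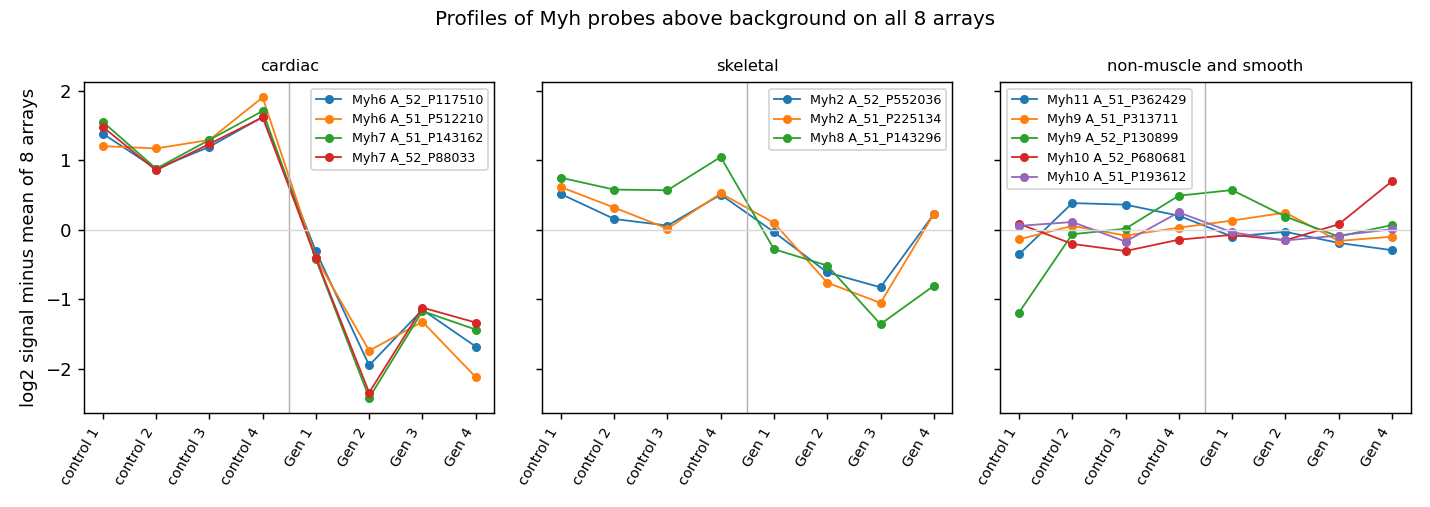
Log2 signal of each probe minus its mean over the 8 arrays (y axis) on each array (x axis), for the Myh probes above background on all 8 arrays. Lines only join the points of a probe, and arrays of a group have no order. On the 4 cardiac probes all Gen arrays lie below the controls, with Gen replicate 1 nearest to them, and the non-muscle and smooth muscle probes show no step between the groups.

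Promoters of Myh6 and Myh7 are printed because the probes named for both genes were lower on the same arrays. Since the Myh6 probes are also assigned to Myh7, a separate fall of Myh6 is not shown. The RefSeq table (GRCm38.p6) held 10 promoter entries for 9 of the 10 genes, and the 250 bases before each start were searched on both strands. The M-CAT motif, CATTCC or its complement GGAATG, is bound by TEAD factors and is in capitals here, for Myh6 at chr14:54966608-54966857 and Myh7 at chr14:54994627-54994876, both on the minus strand.
Myh6: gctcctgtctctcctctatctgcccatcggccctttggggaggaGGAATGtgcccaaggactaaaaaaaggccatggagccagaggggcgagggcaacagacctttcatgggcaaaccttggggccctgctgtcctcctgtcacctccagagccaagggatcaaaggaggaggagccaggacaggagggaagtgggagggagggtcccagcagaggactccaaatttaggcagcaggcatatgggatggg
Myh7: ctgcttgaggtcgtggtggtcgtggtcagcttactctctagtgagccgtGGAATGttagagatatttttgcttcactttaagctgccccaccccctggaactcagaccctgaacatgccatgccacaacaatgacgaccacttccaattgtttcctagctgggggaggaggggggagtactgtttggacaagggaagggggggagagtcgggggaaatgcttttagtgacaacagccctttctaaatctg

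The match starts 206 bases before the start in Myh6 and 201 bases before it in Myh7. The second Myh7 entry, which starts 77 bases further along, has no match in its own window. M-CAT was also present in Myh1, Myh4 and Myh10, which makes 5 genes, and in 12.6% of all 32851 promoters. The letters TATAAA were present in Myh1, Myh3, Myh4, Myh8 and Myh9 and in 12.4% of all promoters. A MEF2 site was matched in Myh1, Myh4 and Myh8 (2.92% of all promoters), and in each it overlapped a TATAAA match. A CArG box was matched in Myh4 alone (1.47% of all promoters). These matches are a description of the letters in the window.

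Among skeletal genes, the single bright probe named for Myh8 was lower with Gen. A_51_P143296 gave 717, 637, 633 and 882 in controls and 351, 298, 166 and 244 with Gen, with no overlap. The log2 change was -1.48 (SE 0.23), 2.78-fold lower with Gen. The other 3 Myh8 probes, A_51_P239800, A_52_P224283 and A_52_P363051, were not above background on any array, so the gene rests on A_51_P143296. Of these, A_52_P224283 is assigned to the same RefSeq transcript as A_51_P143296, but its control signals were only 9.82, 8.06, 15.7 and 6.94. Whether the bright signal comes from Myh8 was not tested. That probe, at chr11:67389989-67390048 on the plus strand of mm7, shared 19 bases with the dim Myh1 probe A_51_P192042, the longest run shared by probes of different member genes among 256 pairs. Probes were searched against each other alone, so a match of A_51_P143296 to another member's transcript was not tested. The shared bases are in capitals.
A_51_P143296: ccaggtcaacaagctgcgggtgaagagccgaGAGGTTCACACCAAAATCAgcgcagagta

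Myh2 was lower on average, but the groups overlapped on its probes. The probe A_52_P552036 gave 549, 428, 401 and 545 in controls and 375, 251, 216 and 449 with Gen (log2 change -0.62, SE 0.24). On A_51_P225134 the signals were 426, 347, 281 and 400 in controls and 298, 164, 134 and 325 with Gen (log2 change -0.74, SE 0.30). On both, Gen replicates 1 and 4 reached the control range or its edge and Gen replicates 2 and 3 were below it. The probes share 18 bases and followed each other with an RMS difference of 0.13. The dimmer A_51_P395652, above background on 2 arrays of each group, had a log2 change of -0.98 (SE 0.35), which became 0 when signals under the floor setting of 65.9 were raised to it.

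Myh1 and Myh4, the genes of the fastest fibres, and embryonic Myh3 were at or near background. Myh1 probe A_51_P192042, above background on 2 control and 3 Gen arrays, gave 29.1, 35.8, 13.7 and 40.8 in controls and 43.9, 16.6, 14.1 and 25.6 with Gen, a full overlap (log2 change -0.29, SE 0.44). Of its other probes, A_51_P364788 was above background on 2 Gen arrays and A_52_P257638 on none. The latter lies on the minus strand, whereas the other Myh1 probes are on the plus strand. Myh4 probe A_52_P602147 was above background on 1 control and 2 Gen arrays, and neither A_51_P338072 of Myh4 nor A_52_P247953 and A_51_P167668 of Myh3 were above background anywhere. The 10 probes not compared had a median log2 change of -1.12, beside -1.16 over all 7909 probes that were never above background. Dim probes of this array set were thus lower with Gen as a body. Scaling moved the median of all compared probes from 0.26 to 0.02, less than this shift, and its cause was not tested.

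Myh11, the smooth muscle form, was bright in both groups. Its only probe, A_51_P362429, spans chr16:13741638-13744562 (mm7, minus strand). The control signals were 103524, 172795, 170071 and 152307, and the Gen signals were 123705, 129686, 116123 and 108010. Control replicate 1 was lower than any Gen array and the other controls were above all of them (log2 change -0.30, SE 0.17). The change was -0.47 without control replicate 1 and -0.06 without scaling of the arrays.

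The non-muscle genes overlapped between the groups on all their compared probes. Myh9 probe A_51_P313711 gave 64265, 73478, 66751 and 72184 in controls and 77478, 83923, 63226 and 65965 with Gen (log2 change 0.06, SE 0.12; 0.30 without scaling of the arrays). A second Myh9 probe, A_52_P130899, at chr15:77889081-77889140 rather than chr15:77843555-77843614, was dimmer and more scattered. It gave 89, 194, 205 and 286 in controls and 302, 232, 190 and 213 with Gen (log2 change 0.37, SE 0.34), with control replicate 1 far below the rest. Without that array the change was 0.04, with normexp background correction it was 0.06, and without scaling it was 0.61. Myh10 probe A_51_P193612 gave 3464, 3598, 2962 and 3964 in controls and 3249, 2994, 3145 and 3350 with Gen (log2 change -0.13, SE 0.11; 0.11 without scaling). Its other bright probe, A_52_P680681, gave 6759, 5532, 5154 and 5771 in controls and 6054, 5740, 6722 and 10336 with Gen (log2 change 0.28, SE 0.19), the highest value being Gen replicate 4. The third Myh10 probe, A_52_P631139, was never above background.

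**Figure D3:**
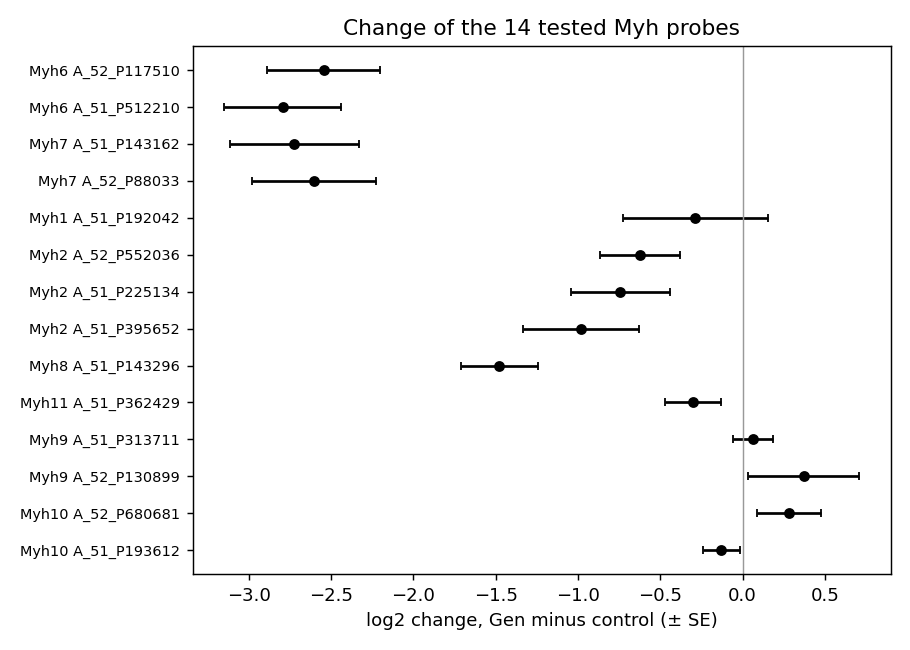
Log2 change, Gen minus control, of the 14 compared Myh probes (x axis), with bars of 1 SE. The Myh6 and Myh7 probes lie between -2.79 and -2.55, A_51_P143296 of Myh8 at -1.48, and the Myh9, Myh10 and Myh11 probes between -0.30 and 0.37.

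As a description of the chosen probes, 5 of the 14 Myh probes had an adjusted p under 0.05 in limma, fitted over all 29552 probes compared. All 5 were lower with Gen and were named for Myh6, Myh7 and Myh8. Over all probes, 265 (0.897%) were called, 120 of them (0.406%) lower with Gen, and the median log2 change was 0.02. Among the 14, the same 5 Myh probes were those with all Gen arrays below all control arrays, a pattern found in 1896 (6.42%) of all probes compared. Since the members were chosen with this contrast known, nothing is read from these counts. The count of 5 fell to 2 without control replicate 1 or Gen replicate 2, and to 0 without control replicate 3, control replicate 4, Gen replicate 3 or Gen replicate 4, while the log2 change stayed between -2.87 and -2.32 for Myh6 probe A_52_P117510, -3.12 and -2.55 for A_51_P512210, -2.90 and -2.25 for Myh7 probe A_52_P88033 and -3.04 and -2.37 for A_51_P143162. It was 1 with dim signals raised to a floor, and 0 by the methods' t-test (5 at an unadjusted p under 0.05) and 0 in limma with the replicate number as a block (8 at an unadjusted p under 0.05).

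Other genes of the muscle and myosin machinery were taken from 8 lists with 121 genes, of which 102 had a compared probe. In limma, 1 of these fell (Tnnt1) and 0 rose, which is 0.98% of those compared, and 22 passed an unadjusted p under 0.05. Over all compared probes, 5624 (19%) passed that unadjusted threshold, 10.4% higher and 8.66% lower with Gen. Scaling lowered every change by the same amount, the median over all probes being 0.02 with it and 0.26 without, and the list medians below are to be read against this. Tnnt1, the troponin T of slow skeletal muscle, had signals of 4083, 5378, 5708 and 6715 in controls and 2930, 2392, 2687 and 3050 with Gen (log2 change -0.97, SE 0.16, adjusted p = 0.0451). This call was lost when any array other than control replicate 1 was left out, with adjusted p between 0.0689 and 0.119, and at 0.219 without scaling, 0.0591 with the floor, 0.0986 by the methods' t-test and 0.138 with the replicate block.

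Of 24 sarcomere and cardiomyocyte genes, 20 were compared and 0 passed limma's adjusted threshold. At an unadjusted p under 0.05, 2 were higher and 4 lower. The higher genes were Smpx (log2 change 2.48, SE 0.65, adjusted p = 0.110 in limma) and Mybpc3 (1.41, SE 0.46, adjusted p = 0.164). On both, every Gen array was above every control, but Smpx was detected on 1 control array only. The lower genes were Tnnt2, Actc1, Ldb3 and Myom2. The median log2 change was 0.18, and -0.13 over the 14 genes above background on all 8 arrays; Nppb, a natriuretic peptide, was detected on Gen arrays alone. Tnnt2, cardiac troponin T, had a log2 change of -0.90 (SE 0.25, adjusted p = 0.120; 0.0479 with no filter on dim probes), with signals of 19413, 38846, 36140 and 29130 in controls and 14570, 18784, 19629 and 12174 with Gen. Tnni3, cardiac troponin I, had a log2 change of 0.37 (SE 0.30, adjusted p = 0.518). The summed signal of the list was 84983–140027 in control and 64375–100088 in Gen. Most of it came from Actc1 (mean signal 71490 in control and 49894 in Gen) and Tnnt2 (29850 and 15992). The sum thus describes these probes, while 12 of the 20 genes had a positive log2 change. Myl2, the ventricular light chain, was not above background on enough arrays to be compared, and neither were Ryr2, Csrp3, Myoz2 and Lmod2.

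Of 17 skeletal muscle genes, 15 were compared, with a median log2 change of -0.48 and 12 of 15 negative (-0.24 and 10 of 15 without scaling). Apart from Tnnt1, 0 were called. Acta1, skeletal actin, had a log2 change of -0.66 (SE 0.28, adjusted p = 0.245) and Tnnt3, fast troponin T, one of -0.31 (SE 0.37, adjusted p = 0.677). At an unadjusted p under 0.05, 1 gene was higher and 4 were lower, Tnnt1 included. The summed signal was 31923–48200 in control and 26560–33234 in Gen.

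Smooth muscle contractile genes, partners of Myh11, were all compared (17 of 17) and 0 were called in limma. Of these, 15 had a negative log2 change and the median was -0.24, whereas without scaling 8 were negative and the median was 0.004. At an unadjusted p under 0.05, 5 were lower and 0 higher. Acta2, smooth muscle actin, had a log2 change of -0.33 (SE 0.14, adjusted p = 0.259) and Tagln, transgelin, one of -0.22 (SE 0.16, adjusted p = 0.486); without scaling these were -0.09 and 0.02.

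The myosin light chains (10 of 12 compared) had a median log2 change of -0.03 and 0 calls in limma, with 1 higher and 1 lower at an unadjusted p under 0.05. Myl1, the fast skeletal chain, had a log2 change of 0.53 (SE 0.33, adjusted p = 0.418). It was dim, above background on 1 control and 4 Gen arrays, and the change was 0.11 with the floor and 0.05 with normexp. Non-muscle actomyosin genes (12 of 13 compared), partners of Myh9 and Myh10, had 0 calls and 1 lower at an unadjusted p under 0.05, and Actb, β-actin, had a log2 change of -0.19 (SE 0.28, adjusted p = 0.741). Among further heavy chains only Myh14, a non-muscle form, was compared (log2 change 0.21, SE 0.17, adjusted p = 0.523).

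Chaperones and turnover factors of myosin (6 of 7 compared) had 0 calls in limma and 0 at an unadjusted p under 0.05. Unc45a and Unc45b, which fold the myosin head, had log2 changes of 0.39 (SE 0.19, adjusted p = 0.297) and 0.21 (SE 0.17, adjusted p = 0.530). Of 27 transcription factors of muscle and myosin genes, 21 were compared and 0 were called in limma. At an unadjusted p under 0.05, 2 were higher and 1 lower. Mef2a and Mef2c, which bind MEF2 sites, had log2 changes of 0.35 (SE 0.17, adjusted p = 0.309) and 0.08 (SE 0.12, adjusted p = 0.757). The skeletal regulators Myod1, Myog, Myf5 and Myf6 were not above background on enough arrays to be compared.

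**Figure D4:**
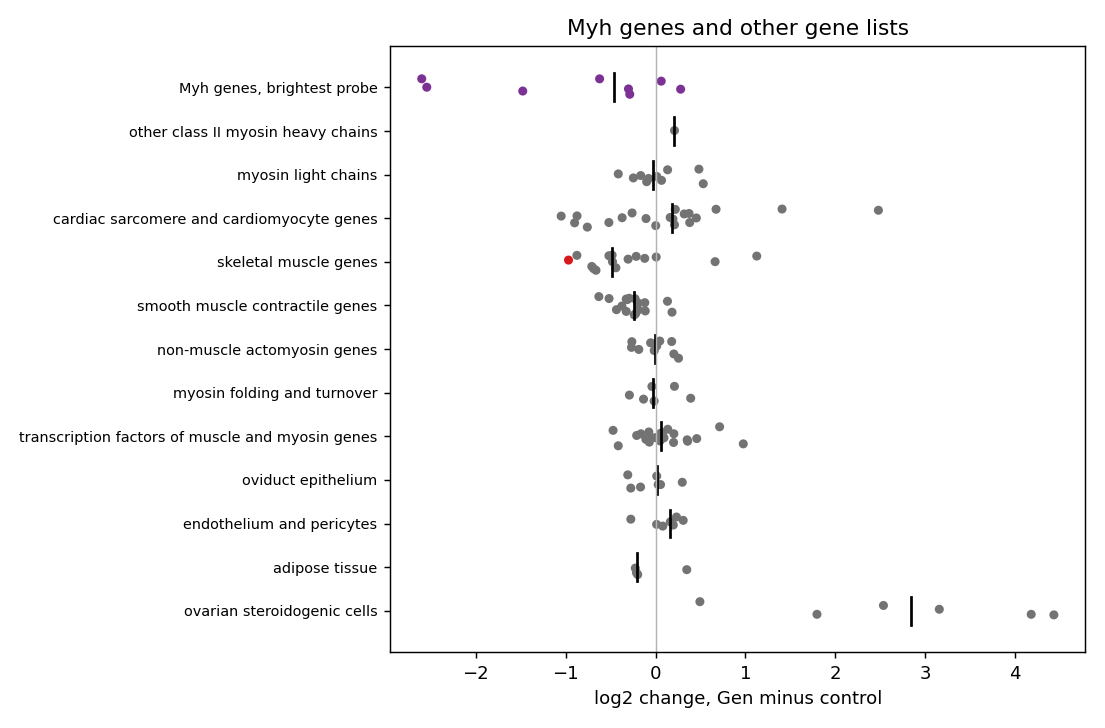
Log2 change, Gen minus control, of each compared gene (points, x axis), for the Myh genes by their brightest probe and for 12 gene lists (y axis). Black bars are medians and the red point is the called gene Tnnt1. The ovarian list has a median of 2.85, and the median of each muscle or myosin list lies between -0.48 and 0.21.

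Markers of other cells were measured beside the family. The summed signal of the ovarian steroidogenic genes was 3221–28151 in control and 31647–140243 in Gen, with no overlap, but 0 of the 6 genes compared were called in limma. Over the 4 of them above background on all 8 arrays, Cyp11a1, Star, Hsd3b1 and Inha, the median log2 change was 3.36 and 4 were higher at an unadjusted p under 0.05. Lhcgr was detected on Gen arrays alone, and with it and Fshr the median was 2.85. Cyp11a1, the side-chain cleavage enzyme, gave 238, 354, 3903 and 271 in controls and 23785, 21029, 4444 and 8710 with Gen (log2 change 4.43, SE 0.95, adjusted p = 0.0734), and Star, the cholesterol carrier, had a log2 change of 1.80 (SE 0.63, adjusted p = 0.184). Cyp19a1, aromatase, was not above background on enough arrays to be compared. The part of this signal in the Myh differences was not tested. Medians of the oviduct epithelium (0.01, 7 of 7 genes), endothelium and pericyte (0.16, 7 of 7) and adipose lists (-0.20, 4 of 5) were close to 0. Each had 0 calls in limma, and 0 genes at an unadjusted p under 0.05 except 1 lower in the epithelium list. The adipose median is imprecise. Adipoq had a log2 change of -0.23 (SE 0.54), which ranged from -0.57 to 0.25 with an array left out.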

How the data were processed

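Oviduct RNA from 4 control and 4 Gen mice was hybridised with 1 dye to Agilent arrays. The authors deposited Feature Extraction (version 9.5) output, and its processed signal is a linear intensity, background-adjusted and unscaled between arrays; the series matrix was identical to it on all 45018 spots. Probe positions are those of the design (mm7). Control and outlier spots were left out, log2 signals averaged per probe, and arrays scaled to a common 75th percentile. Probes well above background on at least 4 of 8 arrays were fitted with limma 3.58.1 (R 4.3.3, data.table version 1.17.8) and p-values adjusted by Benjamini-Hochberg over 29552 probes, in 50 of which an array was missing. A gene was represented by its brightest compared probe. The study's later Resolver step was not applied. The paper called array probes by analysis of variance at p < 0.01. The methods' t-test is the Student's t-test it describes for comparing the groups at each time point. Steps were tested on simulated data. Names came from RefSeq accessions for 22951 probes, from symbols or synonyms for 9768, and from the files for 8455. Sequences came from the files and RefSeq (pandas 2.3.3), plots from matplotlib 3.10.9. Members and lists were chosen with earlier results of these data known, and 1 listed gene is not reported here. Text names every member probe, the first 2 and the called genes of each list (others after their values were seen), and the 5 genes closest to Myh6 and Myh7. Alternatives were no filter, detection on all arrays of 1 group, quantile or no scaling, normexp (offset 50), a floor, outlier spots kept, trend and robust fit, the methods' t-test, a replicate block, gene means, and each array left out. Exon and UTR positions are not stated, since no mm7 genome was at hand. Precision is limited by 4 arrays per group.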

Additional observations from a re-analysis of the deposited data

Results flagged for a closer look

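In 48 groups of 4 arrays, 2 for each Myh probe, 1 array stood far from the rest in 2, by its gap to the nearest array over the range of the group, above Dixon's critical value. Chance alone gives about 1 in 20 such groups. For Myh6 probe A_51_P512210 the ratio in controls was 0.833, with control replicate 4 at 761 against 457–497 in the others; without it the Gen arrays were still all below the controls. For Myh4 probe A_51_P338072 the ratio in Gen was 0.865, with Gen replicate 1 the highest, and this probe was not above background on any array.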

How the results depend on the processing

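The log2 changes of the Myh6 and Myh7 probes kept their sign under all alternatives run, within -2.87 to -2.14 (A_52_P117510), -3.12 to -2.14 (A_51_P512210), -2.90 to -2.25 (A_52_P88033) and -3.04 to -2.37 (A_51_P143162), and over all the main results 66 values were the same by the rule of 1.5 times or 1 SD and 45 were not. The number of probes called over the array (265) was 6674 with no filter on dim probes, 1023 without scaling, 486 with normexp, 163 with the floor, 406 with the trend and robust fit, 11 by the methods' t-test (1746 at an unadjusted p under 0.01) and 3 with the replicate block, and ranged from 2 to 274 with an array left out. The share of calls higher with Gen was 54.7%, and 41.2% after quantile normalization, 88.4% without scaling, 36.6% with normexp, 39.3% with the floor, 13.4% with no filter, and 77% and 74.1% without control replicate 2 or 4. Myh probes called (5) were 1 with the floor, 0 by the t-test and 0 with the replicate block, and 0–4 with an array left out. Myh genes called, each taken by its brightest compared probe (3), were 0 in each of these 3 settings and 0–2 with an array left out. List genes called (1) were 7 with no filter, 4 without scaling, 0 with the floor (22 at an unadjusted p under 0.05), 0 by the t-test (18), 0 with the replicate block (21), and 0–2 with an array left out. Same-numbered arrays deviated with correlations of -0.08, 0.04, -0.03 and -0.13, and no array correlated best with its own number. Each control array correlated best with the Gen array of reversed number (0.27 for control 1 with Gen 4, 0.10 for 2 with 3, 0.25 for 3 with 2 and 0.24 for 4 with 1). The numbers were therefore not taken to pair the samples. The paper compared Gen mice with control littermates, but the sample labels name no litters, so pairing by litter was not modelled. The 5 genes closest to Myh6 and the 5 closest to Myh7 were the same after quantile normalization. List medians without scaling or over genes detected on all arrays were added after seeing the data. The causes were not tested.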
